A study of Mus musculus with 8 samples.

Results

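The major histocompatibility complex (MHC) class II genes of the mouse were followed in ischemic leg muscle. The set holds 8 genes chosen by name, out of 24848 gene symbols in each deposited table. They are H2-Aa, H2-Ab1 and H2-Eb1, which encode chains of the class II molecules I-A and I-E; H2-DMa, H2-DMb1 and H2-DMb2, which encode chains of the peptide-exchange factor H2-M; Cd74, the invariant chain; and Ciita, the class II transactivator. All 8 had a row in every table and reads in every library, and 6 passed the filter on low counts. H2-DMb2 and Ciita did not pass it, and for them counts and levels are given without a test.

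RNA was sequenced from tibialis anterior muscle, a muscle of the front of the lower leg, in 4 libraries from mice on chow with praliciguat and 4 libraries from mice on control chow, called placebo. Praliciguat stimulates soluble guanylate cyclase, the receptor of nitric oxide that makes cGMP. The drug chow held 75 ppm, a content chosen to reach the plasma level that dosing by mouth at 10 mg/kg/day gives, and both diets ran for 31 days from day -3. Every mouse in both groups was male, carried Leprdb/db, had hind limb ischemia surgery, and was killed 28 days after it. Without a functional receptor for leptin, Leprdb/db animals become obese and diabetic, and no group without that genotype, without surgery or from the other leg was compared here. The labels name no strain background. They also leave unsaid whether the 8 libraries came from 8 animals, and p-values therefore cover only library-to-library spread, part of which may be technical. Total expected counts ran from 27271020 to 31896205 in praliciguat libraries and from 21099764 to 29635817 in placebo libraries. Acta1, the actin of skeletal muscle fibres, was at 41678 to 46504 TPM in praliciguat libraries and 45841 to 48167 TPM in placebo libraries, so the labelled tissue and its defining transcript went together in all 8. TPM is a measure of transcript abundance scaled by gene length and library size, so that levels of different genes can be set side by side.

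Class II molecules carry peptides from engulfed proteins to the surface of macrophages, dendritic cells and B cells, where CD4 T cells read them. The invariant chain fills the groove of new class II dimers and is then cut down by lysosomal proteases, after which H2-M exchanges its last fragment for a peptide. Transcription of the classical, H2-M and invariant chain genes depends on the transactivator CIITA, which docks on a complex of RFX, CREB-family and NF-Y proteins at paired promoter elements called the X and Y boxes. In macrophages and many other cells interferon gamma switches Ciita on.

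The letters of these boxes, the known docking site of CIITA, are shown for the members in whose windows they were found; whether they bear on the levels below was not tested. Each RefSeq promoter window of GRCm38.p6, the assembly of mm10, reaches from 250 bases before to 50 bases after a start used by that table, and 5 of the 8 genes had 1 or more, 6 windows in all. That start need not be the outer end of the gene: the 2 windows of H2-DMa, from 34122582 and from 34125268, and the window of H2-DMb2, from 34144999, lie inside the annotated spans of these genes on chromosome 17. Each line gives the strand the gene is read from, 5′ to 3′. In capitals are AAC (part of the X1 box), TGANG (the X2 box) and ATTGG (the Y box, CCAAT on the other strand).
H2-Aa: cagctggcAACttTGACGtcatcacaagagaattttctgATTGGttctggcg
H2-Eb1: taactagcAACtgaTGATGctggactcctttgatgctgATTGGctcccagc
H2-DMb1: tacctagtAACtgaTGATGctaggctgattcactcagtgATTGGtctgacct
H2-DMb2: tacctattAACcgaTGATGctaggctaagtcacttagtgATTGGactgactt
The H2-Aa stretch lies on the minus strand at chr17:34287859-34287910, and the H2-Eb1, H2-DMb1 and H2-DMb2 stretches lie on the plus strand at chr17:34305770-34305820, chr17:34153091-34153142 and chr17:34145120-34145171. The arrangement searched was AAC, 2 or 3 bases, TGANG, 17 to 23 bases, and ATTGG, on both strands, and it was settled after these sequences had been read. It was found in 4 of the 6 windows of the set and in 39 of 32851 windows of all genes (0.119%). The 2 windows of H2-DMa did not hold it, and the outer start of its annotated span was not searched. A match is a run of letters and not a measured site. The letters are those of the reference genome. Since the labels name no strain background, the mice sequenced may differ from it here.

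By length-scaled level the set fell into tiers that were the same in both groups. Cd74 was the most abundant at a mean of 140.1 TPM over the 8 libraries, followed by H2-Aa at 73.3, H2-Ab1 at 43.3 and H2-Eb1 at 25.7 TPM. The chains of H2-M were lower, at 4.77 TPM for H2-DMa, 2.55 TPM for H2-DMb1 and 1.04 TPM for H2-DMb2. In each of the 8 libraries the order from Cd74 to H2-DMb1 held, while H2-DMb2 exceeded H2-DMb1 in praliciguat replicate 1. Ciita was lowest at 0.179 TPM, with 124 reads over all 8 libraries against 20049 for Cd74.

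No gene of the set passed the test between praliciguat and placebo. The group medians of the most abundant members lay close together, while 1 praliciguat library, replicate 3, was far above the rest. The values of the 2 groups overlapped for all 8 members; over all genes tested, praliciguat lay wholly above placebo in 1.32% and wholly below it in 2.54%. In edgeR's quasi-likelihood test with Benjamini-Hochberg adjustment, the 6 tested members had log2 fold changes from 0.33 to 0.54 and an adjusted p of 0.984 each. The same test called 0 of 13569 genes higher (0%) and 0 lower (0%), with 778 genes (5.73%) at an unadjusted p under 0.05. DESeq2 called 126 of 18214 genes (0.692%) in either direction and none of these 6 members. The median log2 fold change was 0.48 for the 6 members and 0.02 over all genes tested.

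Cd74, the invariant chain and a chaperone of every class II dimer, was at 67.3, 60.1, 392 and 120.4 TPM in praliciguat replicates 1 to 4, against 72.4, 108, 226 and 74.8 TPM in placebo replicates 1 to 4. The groups overlapped, with praliciguat replicates 1 and 2 the lowest of all 8, praliciguat replicate 3 the highest and placebo replicate 3 next. The mean was 160.0 ± 157 TPM with praliciguat and 120.2 ± 72.4 TPM in placebo (SD, n = 4 each), and the medians were 93.8 and 91.2 TPM. The log2 fold change was 0.41 ± 0.61 (SE; edgeR adjusted p = 0.984).

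H2-Aa, the alpha chain of I-A, was at 34.7, 31.99, 220.5 and 55.3 TPM in praliciguat replicates 1 to 4, against 37.9, 55.6, 115 and 35.7 TPM in placebo replicates 1 to 4. H2-Ab1, the beta chain that pairs with it, was at 19.2, 15.0, 133 and 34.3 TPM in praliciguat libraries, against 23.4, 30.0, 67.3 and 24.3 TPM in placebo libraries. In both genes praliciguat replicates 1 and 2 were the lowest of the 8 in TPM and replicate 3 of praliciguat and of placebo the highest. In CPM, counts scaled to library size alone, placebo replicate 4 (17.34) was below praliciguat replicate 1 (18.16) for H2-Aa. The log2 fold changes were 0.49 ± 0.64 for H2-Aa and 0.47 ± 0.66 for H2-Ab1 (SE; edgeR adjusted p = 0.984 each). The alpha to beta ratio of the pair in TPM was 1.80 ± 0.233 with praliciguat and 1.66 ± 0.162 in placebo (SD, n = 4 each), with ranges that overlapped.

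H2-Eb1, the beta chain of I-E, was at 10.6, 11.4, 77.9 and 21.3 TPM in praliciguat replicates 1 to 4, against 13.9, 18.5, 39.5 and 12.9 TPM in placebo replicates 1 to 4. It followed the same library order at the top, with praliciguat replicate 3 first and placebo replicate 3 second. The log2 fold change was 0.52 ± 0.64 (SE; edgeR adjusted p = 0.984).

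**Figure D1:**
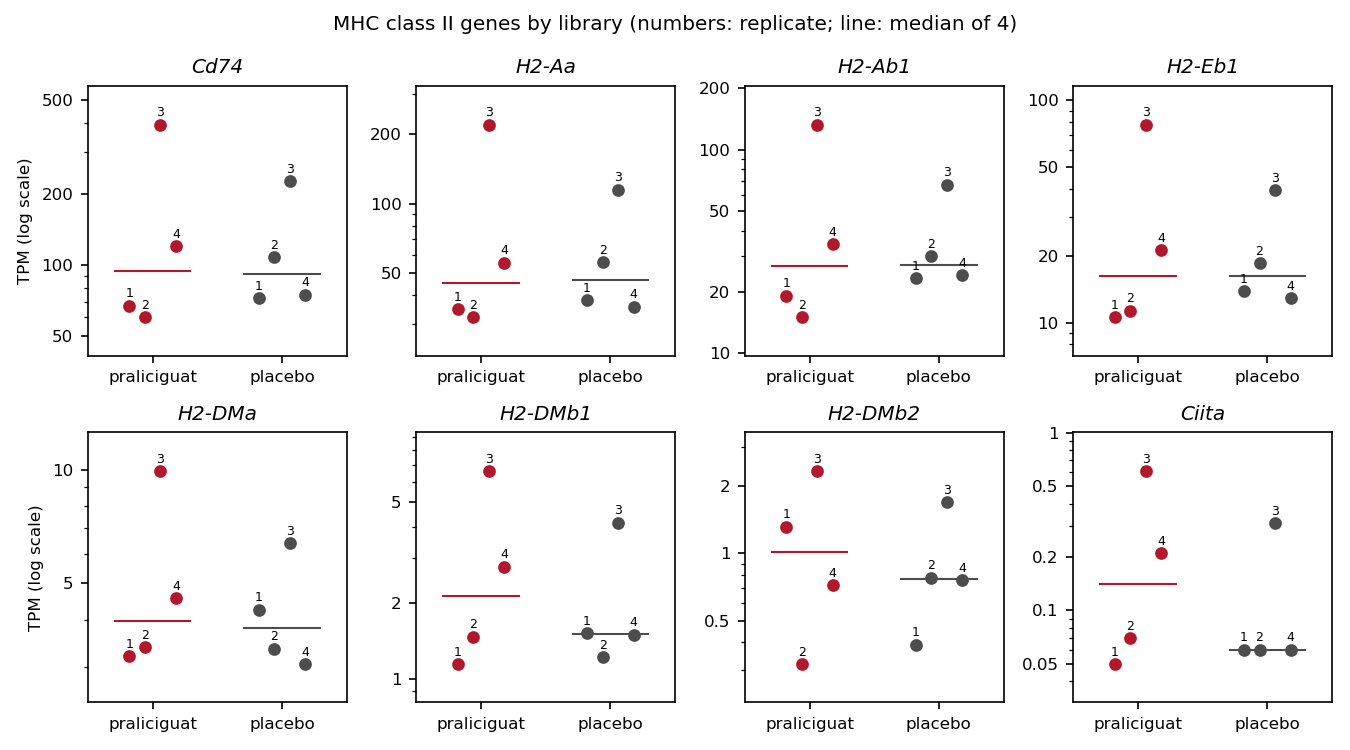
TPM of the 8 class II genes in each library on a log scale, praliciguat left and placebo right; points carry the replicate number and the line is the median of 4. Replicate 3 is the highest library of its group in every panel, from 392 and 226 TPM for Cd74 to 0.61 and 0.31 TPM for Ciita.

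For the chains of H2-M, praliciguat replicate 3 was again the highest library and placebo replicate 3 the second. H2-DMa, the alpha chain, was at 3.21, 3.39, 9.93 and 4.57 TPM in praliciguat replicates 1 to 4, against 4.26, 3.36, 6.40 and 3.06 TPM in placebo replicates 1 to 4. Its log2 fold change was 0.33 ± 0.36 (SE; edgeR adjusted p = 0.984). The highest praliciguat library was 3.09 times the lowest for H2-DMa, 5.76 times for H2-DMb1 and 7.31 times for H2-DMb2, against 6.53 times for Cd74. For H2-DMb2 this sets 26 expected counts against 3, so its ratio is imprecise from counting error alone. The annotated span of H2-DMa overlaps that of Brd2, and the sources used here do not give the strand setting used in counting, so the H2-DMa count is uncertain.

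H2-DMb1, a beta chain of H2-M, was at 1.15, 1.47, 6.62 and 2.78 TPM in praliciguat replicates 1 to 4, against 1.52, 1.22, 4.14 and 1.5 TPM in placebo replicates 1 to 4. The log2 fold change was 0.54 ± 0.58 (SE; edgeR adjusted p = 0.984). Its close relative H2-DMb2 had 12, 3, 26 and 7 expected counts in praliciguat libraries, against 3, 8, 16 and 7 in placebo libraries. Of the different 50-base stretches in the GENCODE M21 transcripts of H2-DMb1, 22.7% also occur in those of H2-DMb2, so how reads were divided between the pair bears on both counts. No such stretch was shared among the other members.

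Ciita, whose protein switches class II promoters on, had 4, 6, 57 and 18 expected counts in praliciguat replicates 1 to 4, against 4, 5, 25 and 5 in placebo replicates 1 to 4. Replicate 3 was again the highest of each group, and placebo replicates 1, 2 and 4 each stood at 0.06 TPM. Its mean was 0.673 ± 0.692 CPM with praliciguat and 0.347 ± 0.340 CPM in placebo (SD, n = 4 each). CPM is the count scaled to normalized library size and not to gene length. With no count filter edgeR gave a log2 fold change of 0.96 ± 0.80 for Ciita and 0.40 ± 0.61 for H2-DMb2 (SE; edgeR adjusted p = 0.881 and 0.951).

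The direction of the fold changes of the 6 tested members rested on replicate 3 of praliciguat. With all 8 libraries 6 of 6 tested members lay above 0, as did 55.2% of all genes tested, and none below 0, as did 44.8%. Without praliciguat replicate 3 all 6 lay below 0, as did 49% of all genes, with a median of -0.47 and values of -0.59 for H2-Ab1, -0.50 for H2-Aa, -0.48 for H2-Eb1, -0.47 for Cd74, -0.13 for H2-DMb1 and -0.11 for H2-DMa. Without placebo replicate 3 they lay above 0 at a median of 0.93. Leaving out replicate 3 of both groups, an alternative chosen after seeing the data, brought the median to -0.02, with 4 members below 0 and 2 above. No member was called in any of these fits; over all genes, 0 of 13651 (0%) were called without praliciguat replicate 3 and 9 of 13494 (0.0667%) without replicate 3 of both groups.

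**Figure D2:**
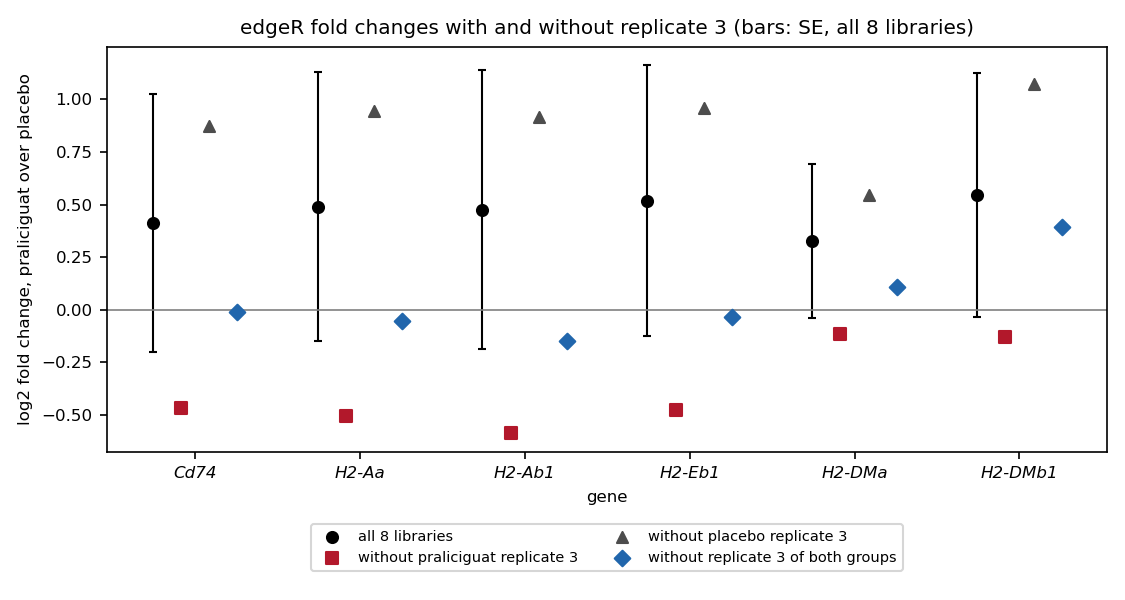
edgeR log2 fold changes of the 6 tested class II genes, praliciguat over placebo, with all 8 libraries (black, bars are SE) and with replicate 3 left out of either group or of both. The values with all libraries lie between 0.33 and 0.54, those without praliciguat replicate 3 between -0.59 and -0.11.

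By the numbers in their titles the libraries split into 2 runs, a lower and an upper one. Each run holds 2 praliciguat and 2 placebo libraries, and what the numbers mark is not stated in the labels. Cd74 differed between praliciguat and placebo by -0.43 in log2 CPM in the lower run alone and by 0.77 in the upper, which holds replicate 3 of both groups. For H2-Aa these differences were -0.41 and 0.81, for H2-Ab1 -0.58 and 0.76, and for H2-Eb1 -0.49 and 0.88. The difference between the runs was not tested.

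Spread within groups was large for these genes. The within-group SD of log2 CPM was 1.01 for H2-Aa, 1.06 for H2-Ab1, 1.02 for H2-Eb1 and 0.98 for Cd74, above 96.5% to 97.4% of all genes tested, whose median was 0.23. It was 0.87 for H2-DMb1 and 0.56 for H2-DMa, above 95.1% and 85.6% of all genes tested. In 6 of 6 tested members praliciguat replicate 3 was the highest library and placebo replicate 3 the second, an order held by 9.06% of all genes tested, while praliciguat replicate 3 was the highest in 22.2%. In the sum over the 8 genes praliciguat replicate 3 was at 843 TPM, 5.05 times the mean of the other 3 praliciguat libraries, and placebo replicate 3 was at 460.5 TPM, 2.64 times the mean of the other 3 placebo libraries.

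The share of Cd74 and that of the classical chains together varied little while the sum of the set varied. These 2 shares make up nearly all of the sum, so they are not independent of each other. Single chains were less constant. The ratio of H2-Aa to H2-Ab1 ran from 1.61 to 2.13 in praliciguat libraries and from 1.47 to 1.85 in placebo libraries. Cd74 made up 48.6 ± 1.55% of the summed TPM of the set with praliciguat and 48.6 ± 1.10% in placebo (SD, n = 4 each). The classical chains H2-Aa, H2-Ab1 and H2-Eb1 together made up 46.3% to 51.2% in praliciguat libraries and 47.6% to 48.9% in placebo libraries. The chains of H2-M made up 2.24% in praliciguat replicate 3 and 3.37% to 4.19% in the other praliciguat libraries, against 2.47% to 4.01% in placebo libraries. The ratio of Cd74 to H2-Aa was 1.94 ± 0.170 with praliciguat and 1.98 ± 0.0840 in placebo (SD, n = 4 each).

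Over the 8 libraries log2 CPM of the 5 other tested members was set against that of Cd74, with permutation p-values adjusted over the 5 relations. H2-Ab1 gave Pearson's r = 0.992 (permutation p = 2.48e-05, adjusted 0.000124) and Spearman's rank correlation = 1.0 (permutation p = 4.96e-05, adjusted 0.000248). H2-Aa gave r = 0.995 (permutation p = 0.000397, adjusted 0.000661) and Spearman's rank correlation = 0.905 (permutation p = 0.00456, adjusted 0.00761), and H2-Eb1 r = 0.994 (permutation p = 0.000223, adjusted 0.000558) and Spearman's rank correlation = 0.952 (permutation p = 0.00114, adjusted 0.00285). Without replicate 3 of both groups, the 2 libraries farthest from the Cd74 median, r over the other 6 was 0.940 for H2-Ab1, 0.978 for H2-Aa and 0.966 for H2-Eb1. H2-DMa and H2-DMb1 gave r = 0.928 each (permutation p = 0.00223 and 0.00382, adjusted 0.00279 and 0.00382), with Spearman's rank correlation = 0.690 and 0.667 (permutation p = 0.0694 and 0.0831, adjusted 0.0831 each). Without the same 2 libraries r was 0.497 for H2-DMa (permutation p = 0.290) and 0.538 for H2-DMb1 (permutation p = 0.275), so for these genes the relation rests on those libraries. The libraries share the muscle they came from and its mixture of cells, so such a relation holds over libraries and not within cells.

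H2-Ea-ps, which is not in the set, gave reads at the level of its partner. This row is the gene of the I-E alpha chain, annotated by RefSeq as a transcribed pseudogene at chr17:34341952-34344645; as background, the C57BL/6 allele in the reference genome lacks the promoter and makes no alpha chain. It was at 19.2, 19.3, 123 and 29.1 TPM in praliciguat replicates 1 to 4, against 22.2, 31.0, 64.3 and 21.3 TPM in placebo replicates 1 to 4. All 8 libraries had it above the level of H2-Eb1, with a ratio of the 2 genes in TPM of 1.37 to 1.81 in praliciguat libraries and 1.60 to 1.68 in placebo libraries. Its log2 fold change was 0.47 ± 0.63 (SE; edgeR adjusted p = 0.984). Class II genes are highly polymorphic between strains and reads were placed on mm10; the part of allele differences in these counts was not tested. The other relatives were scarce. H2-Ob, a chain of the H2-M inhibitor H2-O, had 0 to 17 expected counts in praliciguat libraries and 3 to 15 in placebo libraries, H2-Oa had 4 counts in all, and H2-Eb2 had 0 in all 8.

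Genes outside the set whose log2 CPM was most like the mean of H2-Aa, H2-Ab1, H2-Eb1 and Cd74 over the 8 libraries were ranked by Pearson's r as a measure of likeness, with no test since r chose them. H2-Ea-ps came first (0.994), followed by Prkag2 (0.984), a regulatory subunit of AMP-activated kinase, Plxnb2 (0.983), a semaphorin receptor, and Lcp1 (0.983), the actin-bundling plastin of leukocytes. Edem1 (0.982), which acts in the disposal of misfolded glycoproteins, Myo5a (0.981), a myosin motor of vesicle transport, Arhgef40 (0.979), and Slc25a5 (0.979), a mitochondrial ADP/ATP carrier, completed the 8. Ptprc, the leukocyte antigen CD45, stood at rank 24 of all genes tested by the same measure, members included (0.967). The members H2-DMa and H2-DMb1 stood below Ptprc, at ranks 129 and 181 (0.939 and 0.930), so a high r was not particular to the set.

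Among regulators of the set, no gene was called. Of 10 factors that bind or drive class II promoters all were tested; 7 lay above 0 and the median log2 fold change was 0.10. In TPM 5 of the 10 were highest in praliciguat replicate 3, 4 of them with placebo replicate 3 second. Rfx5, a subunit of the RFX complex, was at 5.15, 3.74, 4.51 and 4.58 TPM in praliciguat replicates 1 to 4, against 5.96, 6.66, 5.74 and 5.05 TPM in placebo replicates 1 to 4. In TPM only praliciguat replicate 1 and placebo replicate 4 overlapped there. In CPM praliciguat replicate 1 (12.51) also exceeded placebo replicate 3 (12.45). The log2 fold change was -0.34 ± 0.14 (SE; edgeR adjusted p = 0.831). Rfxap, another RFX subunit, had 0.22 ± 0.084 (SE; edgeR adjusted p = 0.733). Of 8 genes of interferon gamma signalling 7 were tested and none was called, with a median of 0.11. Ifngr2, a receptor chain, had 0.11 ± 0.12 (SE; edgeR adjusted p = 0.984). Ifng itself had 2 counts in praliciguat replicate 2 and 0 in the other 7 libraries, where 0 counts allow up to 0.0941 to 0.142 CPM (3 counts of the library total, counting error only).

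Of 9 lysosomal enzymes that act on antigen or the invariant chain none was called, and all 9 lay above 0 with a median of 0.25. Without praliciguat replicate 3, 4 of the 9 lay above 0. Ctss, cathepsin S, which makes the last cuts of the invariant chain, was at 24.3, 13.2, 214.5 and 35.2 TPM in praliciguat replicates 1 to 4, against 36.5, 15.8, 59.9 and 21.2 TPM in placebo replicates 1 to 4. Replicate 3 of each group was again the highest, and the log2 fold change was 1.10 ± 0.82 (SE; edgeR adjusted p = 0.984). Ctsl and Ctsd, cathepsins L and D, had 0.33 ± 0.20 and 0.19 ± 0.12 (SE; edgeR adjusted p = 0.982 and 0.984). March1, a ubiquitin ligase that sends class II molecules to degradation, had 0.81 ± 0.66 and its relative March8 0.02 ± 0.10 (SE; edgeR adjusted p = 0.984 and 0.996).

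Of 6 costimulatory and checkpoint ligands 4 were tested and none was called. Icosl, a ligand of the T cell receptor ICOS, had -0.87 ± 0.28 and Cd274, the checkpoint ligand PD-L1, 1.06 ± 0.43 (SE; edgeR adjusted p = 0.564 and 0.788). Cd274 was at 6.94 TPM in praliciguat replicate 1 and at 1.81 to 2.56 TPM in the other praliciguat libraries. In placebo libraries it was at 1.25 to 2.25 TPM. Of 5 ligands and co-receptors of the invariant chain 4 were tested, none was called and all 4 lay below 0, with a median of -0.13. Mif, the cytokine that binds CD74, was at 98.4, 96.3, 124 and 112 TPM in praliciguat replicates 1 to 4, against 147, 141, 143 and 113 TPM in placebo replicates 1 to 4. In TPM only praliciguat replicate 3 exceeded the lowest placebo library. In CPM praliciguat replicate 4 (23.57) also exceeded it (23.25). The log2 fold change was -0.30 ± 0.11 (SE; edgeR adjusted p = 0.681). Cxcr4, a chemokine receptor, had -0.20 ± 0.44 (SE; edgeR adjusted p = 0.990).

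Markers of leukocytes as a whole, only some of which carry class II molecules, and of macrophages were highest in the same libraries as the set. In whole muscle, fewer cells of a type and less RNA per cell cannot be told apart. Ptprc was at 1.10, 1.05, 7.67 and 1.43 TPM in praliciguat replicates 1 to 4, against 1.37, 1.29, 3.35 and 1.36 TPM in placebo replicates 1 to 4. The 6 leukocyte markers summed to 15.0 to 102 TPM in praliciguat libraries and 16.04 to 47.2 TPM in placebo libraries. All 6 were highest in praliciguat replicate 3, and 5 of them had placebo replicate 3 second. The 11 macrophage markers summed to 203, 121, 1468 and 301 TPM in praliciguat replicates 1 to 4, against 242, 170.1, 483 and 213 TPM in placebo replicates 1 to 4. All 11 were highest in praliciguat replicate 3, and 10 had placebo replicate 3 second. Adgre1, the macrophage antigen F4/80, was at 1.31, 1.34, 19.9 and 1.97 TPM with praliciguat, against 1.64, 1.34, 5.63 and 1.94 TPM in placebo.

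None of the 10 tested macrophage markers was called; 10 lay above 0 with all libraries (median 0.81), 0 without praliciguat replicate 3 (median -0.32), and 9 without replicate 3 of both groups (median 0.06). Cd68, a lysosomal protein of macrophages, had 1.02 ± 0.73 and Ccr2, the monocyte chemokine receptor, 0.88 ± 0.59 (SE; edgeR adjusted p = 0.984 each). Of the leukocyte markers, 6 of 6 tested lay above 0 with all libraries and 1 without praliciguat replicate 3, with Cd37 at 0.94 ± 0.63 and Laptm5 at 0.93 ± 0.70 (SE; edgeR adjusted p = 0.984 each). The summed TPM of the class II genes divided by that of the macrophage markers was 0.678, 1.02, 0.574 and 0.794 in praliciguat replicates 1 to 4, against 0.635, 1.28, 0.953 and 0.718 in placebo replicates 1 to 4. By this ratio praliciguat replicate 3 was the lowest of the 8 libraries. Divided by the summed TPM of the 6 leukocyte markers, the class II sum was 8.23 in praliciguat replicate 3. That ratio ran from 7.66 to 9.15 in praliciguat libraries and from 6.07 to 13.5 in placebo libraries, so there praliciguat replicate 3 was not the lowest. Cd74 divided by Ptprc was 63.4 ± 14.5 with praliciguat and 64.7 ± 14.0 in placebo (SD, n = 4 each). The part of leukocyte content in the spread of the class II genes was not tested.

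**Figure D3:**
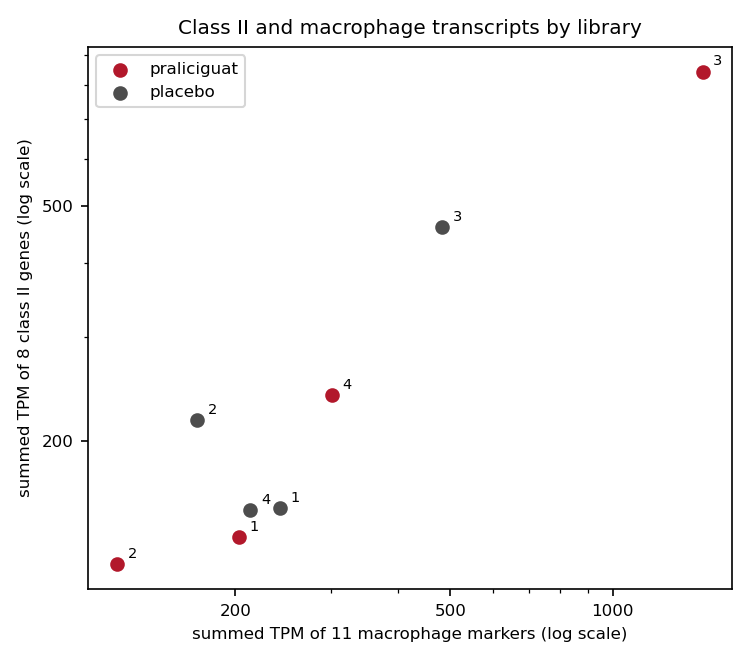
Summed TPM of the 8 class II genes against summed TPM of 11 macrophage markers in each library, both on log scales, with the replicate number beside each point. Praliciguat replicate 3 lies at 1468 and 843 TPM and placebo replicate 3 at 483 and 460.5 TPM, apart from the other 6 libraries.

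Markers of other immune cells were scarce, and many of them were also highest in praliciguat replicate 3: 7 of 9 dendritic cell markers (4 with placebo replicate 3 second), 4 of 6 B cell markers (1), 6 of 7 T cell markers (5) and 2 of 5 neutrophil markers (1). Of 9 dendritic cell markers 3 were tested and none was called, and their sum was 5.05 to 12.5 TPM in praliciguat libraries and 4.89 to 9.78 TPM in placebo libraries. Itgax, the integrin CD11c, was at 0.49, 0.56, 4.14 and 1.22 TPM in praliciguat replicates 1 to 4, against 1.53, 0.33, 2.44 and 0.59 TPM in placebo replicates 1 to 4. Zbtb46, a dendritic cell factor also made by endothelium, had a log2 fold change of -0.51 ± 0.22 (SE; edgeR adjusted p = 0.859), and Itgax 0.41 ± 0.78 (SE; edgeR adjusted p = 0.988). The 6 B cell markers used here summed to 0.59 to 3.44 TPM with praliciguat and 0.49 to 1.32 TPM in placebo, and none passed the count filter. Cd79a, part of the B cell receptor, had 4, 3, 23 and 3 counts with praliciguat, against 4, 6, 5 and 1 in placebo. T cell markers, 7 in all, summed to 0.53 to 5.36 TPM with praliciguat and 0.87 to 3.23 TPM in placebo; 1 was tested, Cd28, a costimulatory receptor, at -1.13 ± 0.40 (SE; edgeR adjusted p = 0.647). Neutrophil markers summed to 4.78 to 43.9 TPM with praliciguat and 5.91 to 30.4 TPM in placebo. Of the 5, 3 were tested and none was called, with 2 above 0 and 1 below. Csf3r was at 0.89 ± 0.81, S100a8 at 0.39 ± 0.62 and S100a9 at -0.41 ± 0.90 (SE, edgeR adjusted p = 0.984, 0.985 and 0.990).

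Among markers of other cells of the muscle, no gene was called. Of 7 endothelial markers all lay below 0 (median -0.35) and none was highest in praliciguat replicate 3. All 7 also lay below 0 without praliciguat replicate 3 (median -0.32) and without replicate 3 of both groups (median -0.37). Tie1 had -0.45 ± 0.12 and Cdh5 -0.38 ± 0.14 (SE; edgeR adjusted p = 0.391 and 0.726). The 5 adipocyte markers summed to 3020.5, 1919, 5077 and 3744 TPM in praliciguat replicates 1 to 4, against 2118, 2007, 3560 and 1441 TPM in placebo replicates 1 to 4. Fabp4 alone was at 4196 TPM in praliciguat replicate 3. Of the 5 markers 3 were highest in that library, 0 of them with placebo replicate 3 second. All 5 lay above 0 with all libraries (median 0.997). They also did so without praliciguat replicate 3 (median 0.78) and without replicate 3 of both groups (median 1.62). Fabp4 was at 0.55 ± 0.28 and Adipoq at 1.08 ± 0.59 (SE; edgeR adjusted p = 0.945 and 0.960). The 8 muscle fibre markers had a median of 0.04, with Myh1 at -0.46 ± 0.20 and Ckm at 0.22 ± 0.11 (SE; edgeR adjusted p = 0.859 and 0.950).

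**Figure D4:**
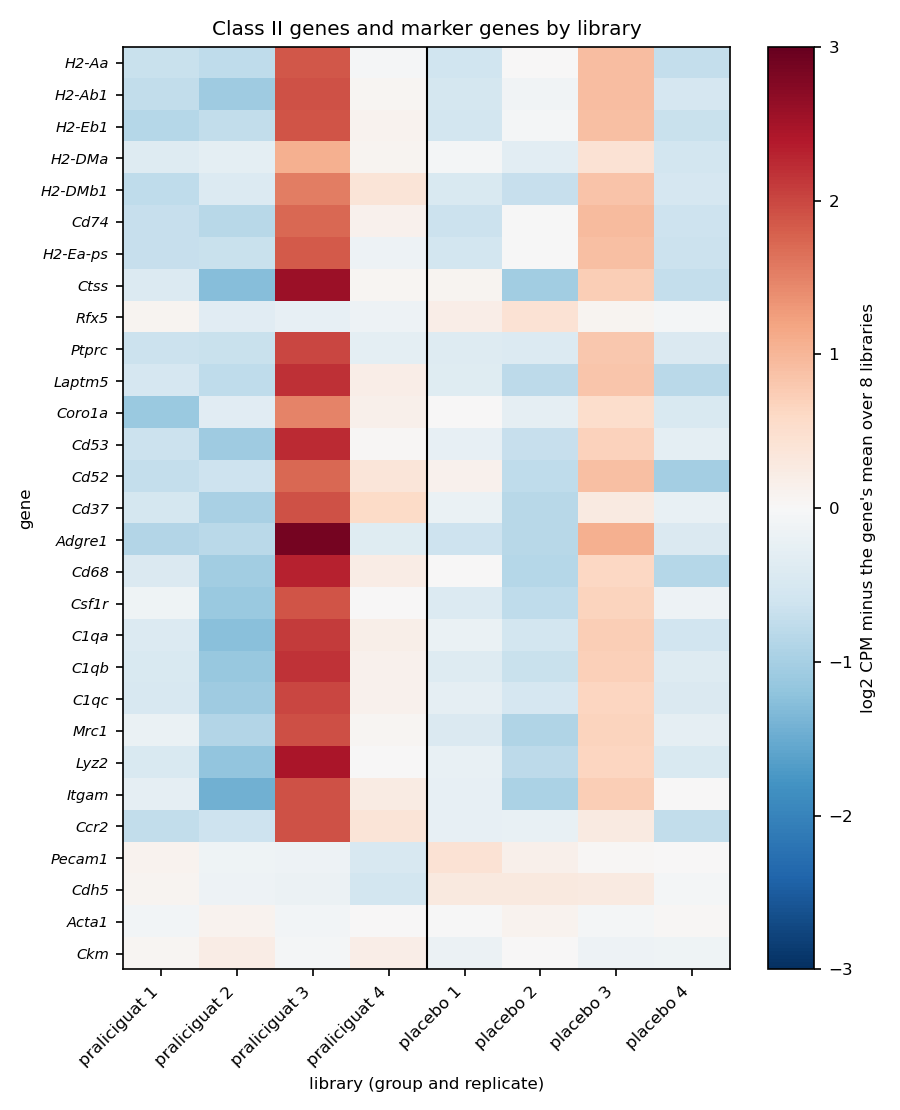
log2 CPM of tested class II genes, Ctss, Rfx5, leukocyte and macrophage markers, and genes of endothelium and muscle fibre in each library, each as the difference from the gene's mean over the 8 libraries (red above, blue below), with praliciguat left of placebo. Class II, leukocyte and macrophage rows are reddest in praliciguat replicate 3; Rfx5, Pecam1, Cdh5, Acta1 and Ckm are not.

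In mm10 coordinates of RefSeq the class II members of chromosome 17 run in the order H2-DMa (34119693 to 34139101), H2-DMb2 (34143229 to 34151553), H2-DMb1 (34153191 to 34160229), H2-Ab1 (34263227 to 34269418), H2-Aa (34282744 to 34287823) and H2-Eb1 (34305867 to 34316674). Ciita lies on chromosome 16 from 10480014 to 10531064 and Cd74 on chromosome 18. Expected counts are per gene over its transcripts, so exons and isoforms were not separated.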

How the data were processed

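The authors deposited 1 RSEM gene table per library. Per the file headers, its expected count column holds estimated read counts per gene, its TPM column the length-scaled level, and its effective length column the bases over which reads can start. RSEM 1.2.28, the aligner STAR 2.5.3a, the genome mm10, Trimmomatic and FastQC are listed in the submitters' processing notes, and the labels' protocols name a stranded mRNA kit. Rounded expected counts went into edgeR 4.0.16 (R 4.3.3), with its filterByExpr rule, TMM normalization, a robust quasi-likelihood fit and F test, Benjamini-Hochberg adjustment over 13569 genes, threshold 0.05, no covariate. The fit was first run on simulated counts, with changes shared by all libraries of a group and no library set apart. Those changes were larger than the fold changes of the members, so that run does not cover their setting. CPM is relative to the TMM-scaled library size; log2 CPM has a prior count of 2. Fold changes are praliciguat over placebo. DESeq2 1.42.0 and limma 3.58.1 gave alternatives, and permutations ran in SciPy 1.17.1. No 2 libraries of a group agreed within sampling noise (chi-square per degree of freedom 21.9 to 136 over 13351 genes). The labels name no molecular identifiers, so the limit given for a count of 0 covers counting error only.

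Members and lists were chosen with earlier results of these data known. Replicate numbers follow accession order and pair no libraries. Leaving out replicate 3 of both groups, and the lists without praliciguat replicate 3, were chosen after seeing the data. Named were all 8 members, the 2 genes of lowest p in each list where none was called, H2-Oa, H2-Ob, H2-Eb2, H2-Ea-ps, Rfx5, Ifng, Ctss and Ptprc, and the 8 genes most like the set, passing over Gm, LOC and Rik symbols; 1 gene that this rule names is not reported here. Adgre1, Cd79a, Pecam1, Acta1 and S100a9 were named after their values were seen.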

Additional observations from a re-analysis of the deposited data

Results flagged for a closer look

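A group of 4 libraries was flagged where its highest or lowest library stood apart from the others by a share of the group's range above Dixon's 95% critical value. Of 32 such groups 9 were flagged. Dixon's value assumes normally distributed values, which was not checked for these levels, sums and ratios, so no rate by chance is given. In praliciguat, replicate 3 stood apart at 220.5 TPM for H2-Aa, 133 TPM for H2-Ab1, 77.9 TPM for H2-Eb1, 123 TPM for H2-Ea-ps, 843 TPM for the sum of the 8 class II genes and 1468 TPM for the sum of the macrophage markers. In placebo, replicate 3 stood apart at 67.3 TPM for H2-Ab1, 4.14 TPM for H2-DMb1 and 0.31 TPM for Ciita. These values come from the same libraries, so the flags are not independent of each other.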

How the results depend on the processing

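No tested member was called in any of 23 alternatives (137 values, lowest adjusted p 0.108), and 16 of those values changed sign. None of the 71 values that kept all 8 libraries lay below 0 (0.05 to 0.55). Leaving out 1 library gave log2 fold changes of -0.50 to 0.95 for H2-Aa, -0.59 to 0.91 for H2-Ab1, -0.48 to 0.96 for H2-Eb1, -0.11 to 0.55 for H2-DMa, -0.13 to 1.07 for H2-DMb1 and -0.47 to 0.87 for Cd74, a median of -0.47 to 0.93, and 0 to 6 members below 0. In the lower run of title numbers alone the values were -0.45, -0.61, -0.53, -0.18, -0.0081 and -0.48 in the same order, with a median of -0.46 and 6 members below 0. Without replicate 3 of both groups H2-Aa was at -0.052, H2-Ab1 at -0.15, H2-Eb1 at -0.037 and Cd74 at -0.012, the median at -0.024, and 4 members below 0. Over all genes DESeq2 called 13 higher and 113 lower, the lower run alone 159 and 205, and 0 higher with 1 lower (library totals), 2 lower (limma-voom), 3 lower (run as a term) and 0 to 5 lower (1 library left out; 9 without replicate 3 of both groups). The cause was not tested. No paired analysis was possible because the labels number no replicates across the groups. Depth limits Ciita and H2-DMb2, with 124 and 82 counts in all 8 libraries.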
